A study of Mus musculus with 6 samples.

Results

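Dlk1, Numb and the Notch pathway were described here through the splice junction reads of 9 mouse genes: Dlk1, Notch1, Notch2, Notch3, Numb, Numbl, Rbpj, Itch and Maml1. Every event of these genes was taken from a deposited table of 45595 splicing events in 9590 genes, which gave 23 events in 8 of the 9 genes. No event of Notch1 was among them. The members were chosen by gene symbol, and Dlk1 was chosen on its reads, which were nearly absent from set 1. The cells were Neuro-2a (N2a), a mouse neuroblastoma line, with 3 libraries labelled hnRNP DL-/- and 3 labelled wild type. The gene deleted in the hnRNP DL-/- cells, Hnrnpdl, encodes hnRNP DL, a nuclear protein that binds RNA. The labels do not say how it was deleted, whether the knockout line is 1 clone, or whether libraries came from separate cultures, so p-values may measure technical spread alone. The table holds 2 sets of 3 libraries and neither its headers nor the labels say which set is the knockout. The libraries are therefore called set 1 and set 2, all differences are set 1 minus or over set 2, and no genotype is attached to either.

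Notch receptors are single-pass membrane proteins that are cut by proteases when a Delta or Jagged ligand on a neighbouring cell binds them. The freed intracellular part enters the nucleus, where it joins the DNA-binding protein Rbpj and a Mastermind coactivator such as Maml1 to switch on target genes. Numb and its relative Numbl are endocytic adaptors that restrain Notch and are passed unequally to daughter cells in dividing neural precursors. Itch is a ubiquitin ligase that marks Notch for degradation. Dlk1 is a membrane protein with Delta-like EGF repeats that lacks the domain by which canonical ligands bind Notch, and its imprinted gene is active in embryonic, adrenal and neuroendocrine tissue.

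Junction reads summed over all events, with a read counted in each event it touches, ranged from 13573870 to 16707466 in set 1 and from 13501749 to 18185394 in set 2. The most covered event of Hnrnpdl had 2014, 1806 and 1760 reads in set 1, against 2569, 2146 and 2034 in set 2. The labels do not give the deleted stretch, so these reads check no label. On the first principal component of gene totals, which held 40.2% of the variance, library 1 of set 1 lay at −5.84. The other libraries of set 1 lay at 18.35 and 22, and those of set 2 lay between −18.01 and −7.67. On the second component, with 26.7%, library 1 lay at 18.88 in set 1 and 8.91 in set 2, the others of set 1 at 0.96 and 0.60 and those of set 2 at −12.6 and −16.76. Of 21 markers of neuroblasts and neurons, 10 were tested in junction total and 2 were lower in set 1, Dbh and Chgb. Over all genes tested 1.06% passed in either direction. The markers were listed with earlier results of these data known, so nothing is read from the count. Of 17 markers of other cell types, 15 had no event among those analysed, and Pecam1 and Mbp had at most 15 reads in any library.

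Dlk1 (chromosome 12, 109452823 to 109463336, plus strand, build GRCm38) had 2 events, both a stretch inside its last coding exon that is either kept or removed as if it were an intron. They are printed because they are the only Dlk1 sequence that these reads measure. Known mouse splice forms of Dlk1 lose part of the extracellular region next to the membrane, where the soluble ectodomain is released. Both stretches start at the same base, begin with GT and end with AG, and keep the reading frame, with 51 and 75 codons. Capitals mark the stretch and lower case the 24 bases on each side, taken from GENCODE vM21 transcripts. The stretches run from 109459893 to 109460045 and from 109459893 to 109460117 on chromosome 12.
Dlk1 153-base segment: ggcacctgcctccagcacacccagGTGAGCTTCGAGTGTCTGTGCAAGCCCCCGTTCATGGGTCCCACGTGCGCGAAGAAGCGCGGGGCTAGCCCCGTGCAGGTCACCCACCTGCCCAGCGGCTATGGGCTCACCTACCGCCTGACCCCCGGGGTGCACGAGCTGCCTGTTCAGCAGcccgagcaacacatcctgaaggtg
Dlk1 225-base segment: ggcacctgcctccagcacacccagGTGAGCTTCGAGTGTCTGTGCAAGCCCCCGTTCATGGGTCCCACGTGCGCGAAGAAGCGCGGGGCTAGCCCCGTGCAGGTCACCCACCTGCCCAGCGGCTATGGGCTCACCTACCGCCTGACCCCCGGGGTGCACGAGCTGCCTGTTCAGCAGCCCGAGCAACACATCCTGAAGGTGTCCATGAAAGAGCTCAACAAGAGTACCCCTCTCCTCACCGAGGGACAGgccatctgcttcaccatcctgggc

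Dlk1 was nearly silent in junction reads in set 1 and well covered in set 2. The event of the 225-base stretch had 1, 1 and 0 reads in set 1, against 261, 542 and 254 in set 2. The event of the 153-base stretch had 2, 1 and 0 reads in set 1, against 244, 517 and 243 in set 2. Every library of set 1 was low and every library of set 2 was high, with no overlap, and library 1 of each set, which stood apart over all genes, lay within this pattern. The 2 events share reads at their common start and are not independent counts of the gene. Scaled to the library's sum over genes (CPM), the 225-base event stood at 0.145 ± 0.127 in set 1 and 78.9 ± 42.0 in set 2 (SD, n = 3 each). The ratio of set 1 over set 2 from the summed reads, 2 against 1057 and scaled by library totals, was 0.00196. Its 95% exact (Clopper-Pearson) interval of 0.000237 to 0.0071 covers counting error only. No test was made, since Dlk1 was chosen for this difference. Fewer cells that express Dlk1 and less Dlk1 RNA per cell cannot be told apart in these bulk libraries.

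**Figure D1:**
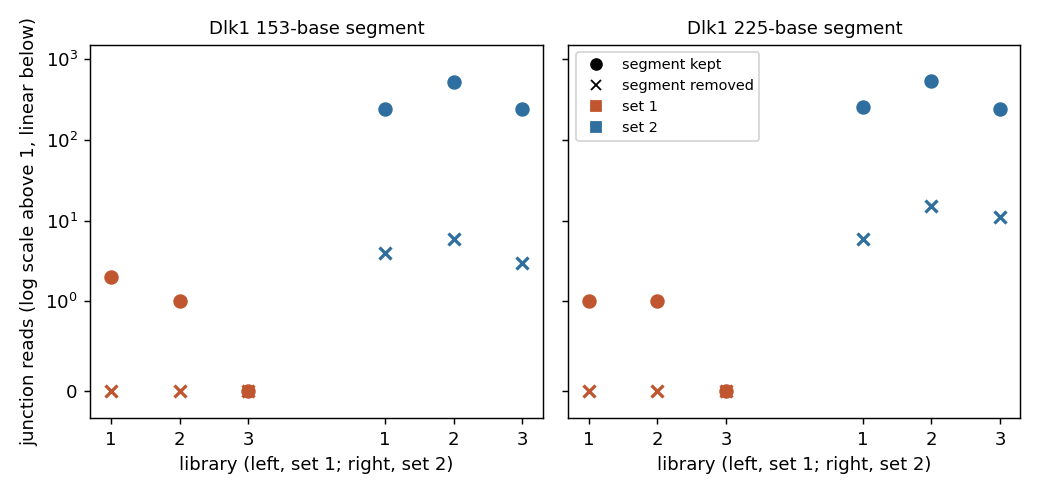
Junction reads of the 2 Dlk1 events in each library, with reads on the form that keeps the stretch as circles and on the form that removes it as crosses, on a scale that is logarithmic above 1. Set 1 holds 0 to 2 reads per library and set 2 holds 243 to 542, almost all of them on the form that keeps the stretch.

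In set 2, the only set with enough reads to compare the forms, most Dlk1 junction reads kept the stretch. Reads that removed the 225-base stretch numbered 6, 15 and 11 in the 3 libraries of set 2. These were 2.30%, 2.77% and 4.33% of reads, with exact 95% intervals of 0.848% to 4.94%, 1.56% to 4.52% and 2.18% to 7.62%. Reads that removed the 153-base stretch numbered 4, 6 and 3, which were 1.64%, 1.16% and 1.23% of reads. The intervals overlapped between libraries for each stretch. The inclusion level, which divides the reads of each form by the length over which that form can be read, was 0.939 ± 0.020 for the 225-base stretch and 0.973 ± 0.005 for the 153-base stretch in set 2 (SD, n = 3). In set 1 all reads kept the stretch, but with 2 and 3 reads in all the forms there could not be compared with set 2.

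Among genes listed as domain neighbours of Dlk1 on chromosome 12, none of those tested passed the test of junction totals. Rian alone among those tested lies close to Dlk1. Of 16 listed genes 10 had an event and 7 had enough reads for the limma test of junction totals. Of these 0 passed, with a smallest adjusted p of 0.725 and 0 at an unadjusted p under 0.05. Over all genes tested 1.06% passed, so 0 of 7 does not show the domain to be unchanged. The median log2 ratio of the 7 was −0.05, against 0.01 for all 8281 genes tested. Rian, a maternally expressed noncoding RNA 151.1 kb from the Dlk1 start, had 27, 29 and 28 reads in set 1, against 57, 32 and 33 in set 2. Its log2 ratio was −0.39 ± 0.26 (SE), and its scaled totals did not overlap between the sets, as held for 14.1% of genes tested. Meg3, the maternally expressed noncoding RNA nearest to Dlk1 in the list, had 21, 14 and 17 reads in set 1, against 23, 10 and 12 in set 2. Mirg, a microRNA host RNA further along the domain, had 26, 14 and 5 reads in set 1, against 8, 22 and 13 in set 2. Both had too few reads for the test and overlapped between the sets. The coding genes on either side, Evl, Yy1, Wars, Wdr25, Ppp2r5c and Dync1h1, had log2 ratios from −0.09 to 0.24. Of 27 other imprinted genes 8 were tested and 0 passed (smallest adjusted p = 0.324 by limma). Beside the share of 1.06% over all genes, this count says little too. An exon of Gnas, which encodes the stimulatory G protein alpha subunit, was called in the authors' deposited table, as were events in 2.63% of all genes, but not by the quasi-binomial test (adjusted p = 0.094). Its levels were 0.429, 0.427 and 0.446 in set 1 and 0.580, 0.599 and 0.596 in set 2.

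**Figure D2:**
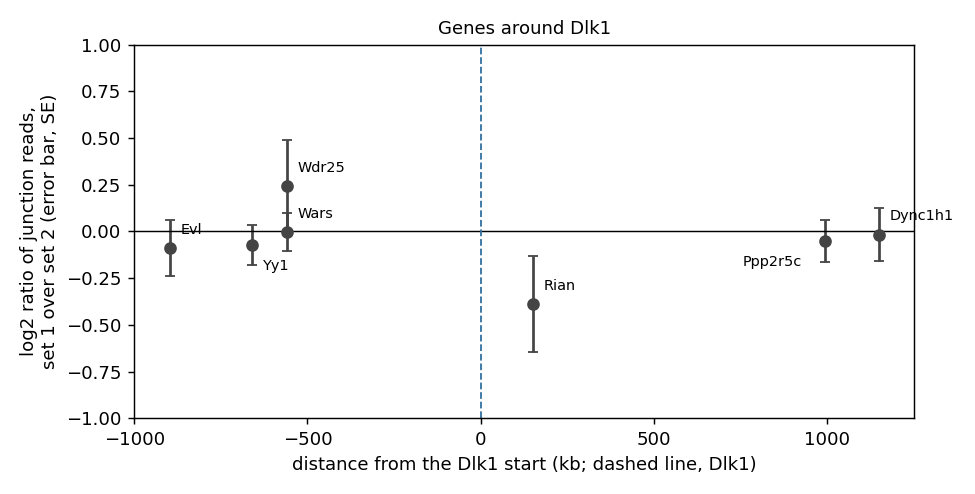
Log2 ratio of junction reads (set 1 over set 2, error bar SE) of the 7 tested neighbours of Dlk1 against the distance of their start from that of Dlk1 in kilobases, with Dlk1 as a dashed line. All lie between −0.39 and 0.24, the lowest being Rian.

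The genes whose junction totals were most like that of Dlk1 over the 6 libraries, by Pearson correlation of log2(CPM + 1), were Chrna7 (r = 0.991), Pbk (0.989), Rps14 (0.983), Echdc2 (0.982) and Greb1 (0.981). These correlations describe 6 libraries in 2 sets, share the library totals used for scaling, and carry no test. Greb1, a gene first known as an oestrogen target, had 9, 6 and 10 reads in set 1, against 60, 69 and 68 in set 2. Chrna7, a nicotinic acetylcholine receptor subunit, had 82, 67 and 62 reads in set 1, against 130, 121 and 96 in set 2. In all 5 genes set 1 lay below set 2 without overlap, a pattern that the likeness measure itself selects. Dbh, the enzyme that makes noradrenaline, had 21, 6 and 5 reads in set 1, against 88, 61 and 56 in set 2. It fell by 2.37 on the log2 scale (SE 0.34, limma adjusted p = 0.00348). Chgb, a secretory granule protein, had 1894, 1042 and 853 reads in set 1, against 3427, 2252 and 1985 in set 2, and fell by 1.01 (SE 0.17, limma adjusted p = 0.0132). The CPM summed over the 10 neuroblast and neuronal markers with an event ranged from 1107 to 1633 in set 1 and from 1729.5 to 1955 in set 2. Chgb is part of these sums, with a mean CPM of 277 in set 1 and 547 in set 2. The other tested markers did not pass, and over all genes tested 1.06% did. Since the marker list was chosen with earlier results known, the p-values of Dbh and Chgb are a description. Log2 ratios were 0.28 for Map2, 0.02 for Elavl4 and −0.01 for Chga. They were −0.32 for Ncam1, −0.33 for Ret, −0.36 for Isl1, −0.41 for L1cam and −0.94 for Gap43. All of these but Ret overlapped between the sets, and 14.1% of genes tested did not. Gap43 CPM was 409, 142 and 112 in set 1 and 416, 403 and 278 in set 2, so library 1 of set 1 lay within set 2. L1cam in library 1 of set 1, at 97.0 CPM, lay above all of set 2. The median log2 ratio of the 10 markers was −0.35, and 11 of the 21 markers had no event among those analysed. The markers of other cell types summed to 2.84 to 4.91 CPM in set 1 and 1.17 to 3.20 CPM in set 2. The part of the neuroblast markers in the Dlk1 difference was not tested.

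Numb (chromosome 12, 83794034 to 83921934, minus strand) had 6 events, among them the only member event called in the authors' deposited table, a 33-base coding exon. Capitals mark 2 alternative coding exons of Numb, printed because they set which of the known Numb protein forms is made. The 33-base exon (83825259 to 83825291) adds 11 codons to the phosphotyrosine-binding domain, by which Numb binds its partners and the membrane. The 147-base exon (83797197 to 83797343) adds 49 codons to the proline-rich region. Both keep the frame and hold no stop codon in it.
Numb 33-base exon: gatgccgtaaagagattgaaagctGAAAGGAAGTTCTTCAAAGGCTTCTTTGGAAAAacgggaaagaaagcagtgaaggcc
Numb 147-base exon: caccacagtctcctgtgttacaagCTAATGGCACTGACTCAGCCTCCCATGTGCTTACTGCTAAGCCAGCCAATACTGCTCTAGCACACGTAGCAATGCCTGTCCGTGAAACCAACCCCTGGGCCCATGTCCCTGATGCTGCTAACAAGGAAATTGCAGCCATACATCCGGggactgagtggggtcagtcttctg

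The 33-base exon stood at a higher inclusion level in set 1. Its inclusion levels were 0.306, 0.432 and 0.391 in set 1 and 0.168, 0.158 and 0.171 in set 2. All 3 libraries of set 1 lay above all 3 of set 2. The means were 0.376 ± 0.064 and 0.166 ± 0.007 (SD, n = 3 each), a difference of 0.21. It rested on 23, 24 and 32 inclusion reads against 43, 26 and 41 skipping reads in set 1. In set 2 the exon had 14, 8 and 12 inclusion reads against 57, 35 and 48 skipping reads. The authors' deposited table listed it at an adjusted p of 0.00478. It was not called by the quasi-binomial test (adjusted p = 0.746) or by limma on logit levels (adjusted p = 0.690), and these values are a description, since the exon's level was known beforehand. Of all events in it, 0.645% were called at an adjusted p under 0.05 and a change of 0.10 or more, and among the member events 1 of 23 was. The members were chosen with this call known, so nothing is read from the count. Of the 12 annotated Numb transcripts 5 hold the exon and 3 join its neighbours directly. Leaving out any 1 library kept the difference between 0.18 and 0.25.

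The remaining Numb exons were not called in the authors' deposited table or by the quasi-binomial test. The 147-base exon had levels of 0.194, 0.140 and 0.193 in set 1 and 0.281, 0.171 and 0.112 in set 2. An 85-base exon in the 5′ UTR (83855440 to 83855524) had levels of 0.424, 0.533 and 0.422 in set 1 and 0.617, 0.414 and 0.390 in set 2. For both, library 1 of set 2 was the highest of the 6 and the sets overlapped. The differences of the means were −0.01 for each, and the quasi-binomial adjusted p was 0.892 for the 147-base exon and 0.964 for the 85-base exon. A 141-base exon that holds 126 coding bases (83842218 to 83842358) and a 145-base exon before the start codon (83876668 to 83876812) were at 0.955 or above in every library. The same 2 exons are also listed as a mutually exclusive pair, at 0.568 ± 0.060 in set 1 and 0.576 ± 0.040 in set 2 (SD, n = 3 each). Since each was included in nearly all reads as a skipped exon, that level compares reads on different junctions of transcripts that hold both.

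**Figure D3:**
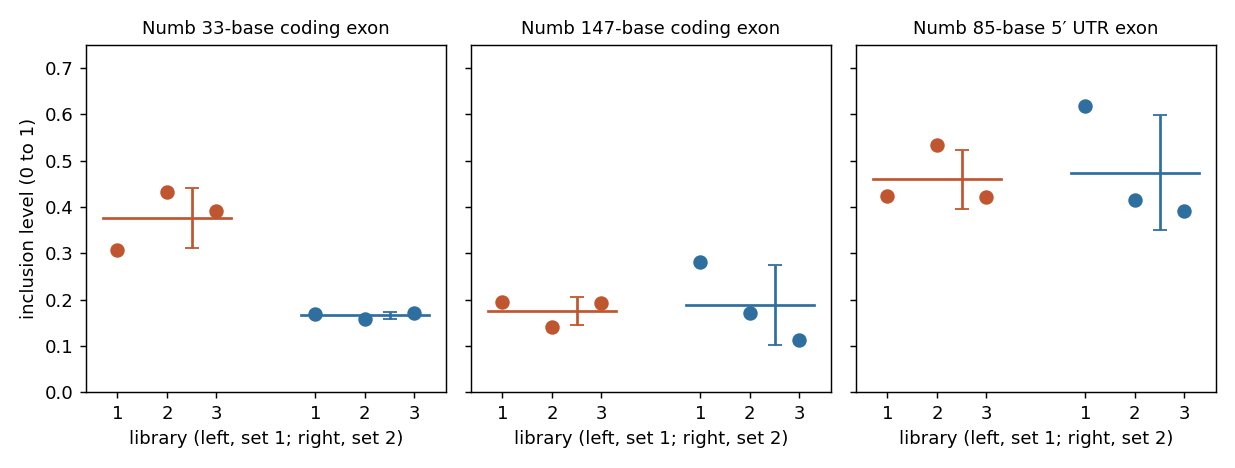
Inclusion level of 3 alternative Numb exons in each library, with a line at the mean of each set and a bar for the SD (n = 3). The 33-base exon is at 0.306 to 0.432 in set 1 and 0.158 to 0.171 in set 2, while the 147-base and 85-base exons overlap between the sets.

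Numbl (chromosome 7, 27258433 to 27282144, plus strand), the Numb relative, had 4 events and none passed the test. A 100-base noncoding exon was rarely used, at 0.077, 0.056 and 0.047 in set 1 and 0.082, 0.085 and 0.031 in set 2. A 75-base coding exon was at 1.0, 1.0 and 0.956 in set 1 and at 1.0 in all 3 libraries of set 2. A 141-base coding exon was at 0.98 or above in every library. The 75- and 141-base exons are also listed as a mutually exclusive pair, at 0.391 ± 0.098 in set 1 and 0.346 ± 0.066 in set 2 (SD, n = 3 each), where the same remark on shared transcripts holds. The difference of 0.0451 ran from 0.005 without library 2 of set 1 to 0.0996 without library 3 of set 1. Quasi-binomial adjusted p-values of the 4 events ran from 0.746 to 0.941.

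Itch (chromosome 2, 155133509 to 155226855, plus strand) had 5 events. A 202-base exon before the start codon (155157774 to 155157975) had the largest difference after the Numb exon among the events tested. Its levels were 0.236, 0.193 and 0.148 in set 1 and 0.148, 0.122 and 0.065 in set 2. To 3 decimals the lowest library of set 1 equalled the highest of set 2, and recomputed from the reads they were 0.1478 and 0.1475. The means were 0.192 ± 0.044 and 0.111 ± 0.042 (SD, n = 3 each), a difference of 0.08 that stayed under the threshold of 0.10. Its adjusted p was 0.072 in the authors' deposited table. By the quasi-binomial test it was 0.746, and 0.0221 before adjustment. A 91-base exon that holds 70 coding bases was at 1.0 in all 3 libraries of set 1 and at 0.977, 0.988 and 0.991 in set 2, on 4 skipping reads in all. Coding exons of 142 and 70 bases were at 0.986 or above in every library. The pair of the 91- and 142-base exons, listed as mutually exclusive, stood at 0.478 ± 0.044 in set 1 and 0.529 ± 0.038 in set 2 (SD, n = 3 each).

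Among the receptors, Notch2 (chromosome 3, 98013527 to 98150361, plus strand) had 2 coding exons that were almost always included. The 229-base exon (98120727 to 98120955) was at 1.0 in the 3 libraries of set 1 and at 0.938, 1.0 and 1.0 in set 2, and the 114-base exon (98101521 to 98101634) at 1.0 in set 1 and at 1.0, 1.0 and 0.929 in set 2. Each level below 1 came from 2 skipping reads in 1 library. Notch3 (chromosome 17, 32120820 to 32166852, minus strand) had 1 event, a 133-base coding exon with 4, 9 and 9 reads in set 1, against 1, 7 and 1 in set 2. Its mean of 5.17 reads per library was under the minimum of 20, and it was not tested.

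In the nuclear complex, Rbpj (chromosome 5, 53466152 to 53657362, plus strand) had a 96-base coding exon (53635962 to 53636057) at 0.991 or above in every library. Its 50-base noncoding exon was skipped in all reads of set 1 and in 27 of 29 reads of set 2, with a mean of 10.5 reads per library, and was not tested. Maml1 (chromosome 11, 50255634 to 50292311, minus strand) had a 97-base coding exon (50260977 to 50261073) at 0.975, 1.0 and 1.0 in set 1 and at 1.0 in all libraries of set 2.

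Taking the 21 member events with a mean of 20 or more reads, the quasi-binomial test called 0, with a smallest adjusted p of 0.746. On simulated data this test missed most changes at every size tried, so an event that was not called is not shown to be unchanged. At an unadjusted p under 0.05 stood 2 of the 21, and 3 by limma on logit levels, which also called 0. The 2 were the Numb 33-base exon, whose level was known beforehand, and the Itch 202-base exon. Over all events the shares at that p were 3.8% and 3.3%. Over the whole table the quasi-binomial test called 11 of 39419 events, or 0.0279%. The median absolute change was 0.015 over the 21 events and 0.008 over all events tested, and 11 of the 21 were higher in set 1. Among those 11 are the Numb 33-base exon and the 2 Dlk1 events, which reached the minimum count through set 2 alone. In 13 events all libraries with reads were at 0.90 or above. The sets did not overlap in 4 of the 21 events, against 5.56% of all events tested. These counts use the deposited levels, rounded to 3 decimals. Recomputed from the reads, a step added after the data were seen, they were 5 of 21 and 5.94%, the Itch 202-base exon being the fifth. The 4 were the 2 Dlk1 events, whose level in set 1 rests on at most 3 reads, the Itch 91-base exon with its 4 skipping reads, and the Numb 33-base exon. The members were chosen with the Dlk1 and Numb values known, so nothing about the members is read from the counts over the 21 events.

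**Figure D4:**
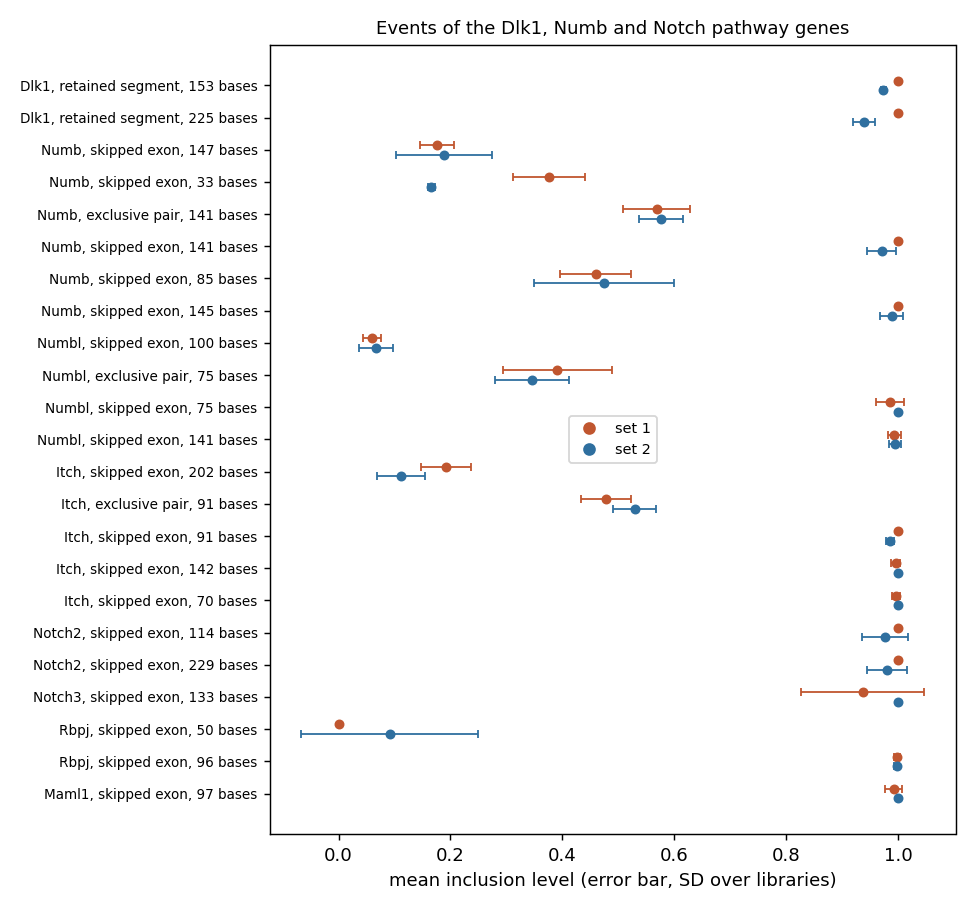
Mean inclusion level of each of the 23 events in set 1 and set 2, with the SD over libraries, labelled by gene, kind of event and length of the exon or segment. The Numb 33-base exon, at 0.376 and 0.166, is the event whose bars stand farthest apart, and most others sit near 1 in both sets.

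Dlk1 was left untested, and no other member gene passed the test of junction totals. Taking for each gene its event with the most reads, 6 further members were tested with limma and 0 passed, with no member at an unadjusted p under 0.05. Over all genes 1.06% passed, 49 higher and 39 lower in set 1. Numbl had the highest ratio, with 136, 189 and 180 reads in set 1, against 159, 140 and 109 in set 2, a log2 ratio of 0.35 ± 0.20 (SE, adjusted p = 0.666). It was 0.58 without library 1 of set 1 (adjusted p = 0.089) and 0.22 without library 2 of set 1, where Maml1 stood higher at 0.27. Notch2 had 45, 58 and 99 reads in set 1, against 62, 50 and 64 in set 2, with library 3 of set 1 the highest. Its log2 ratio was 0.17 ± 0.30 (SE, adjusted p = 0.945). Numb had 129, 128 and 113 reads in set 1, against 130, 128 and 132 in set 2, at −0.03 ± 0.18 (SE, adjusted p = 0.986). The log2 ratios of Itch, Maml1 and Rbpj were 0.13, 0.13 and 0.04. The sets overlapped in all 6 genes. They did not overlap in 14.1% of all genes tested, so with only 6 genes this says little. These totals follow both the expression of the gene and the use of that event.

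The wider pathway showed no gene that passed either. The 5 Notch lists hold 92 genes, of which 67 had an event and 64 were tested in junction total. None passed by limma, against 1.06% of all genes tested. At so low a share, 0 of 64 says little about the pathway. At an unadjusted p under 0.05 stood 2, a count given without the share over all genes. The smallest adjusted p was 0.380 and the median log2 ratio was 0.02. Of 19 genes of ligands and glycosylation 10 were tested, with a median log2 ratio of 0.02, among them Jag2 at −0.14 and the fringe enzyme Lfng at 0.31. The ligand Jag1 had 1 to 9 reads per library. Of 10 genes of receptor cleavage 8 were tested, with Adam10, the first protease to cut the bound receptor, at 0.05 and the gamma-secretase subunit Ncstn at 0.01. Of 19 genes listed as nuclear partners 15 were tested, among them the acetyltransferase gene Kat2b at 0.43 ± 0.18 (SE, adjusted p = 0.439). The list also holds Kyat1, at 0.41, which encodes a metabolic enzyme and is counted in the 92, 67 and 64 above. Of 13 targets 5 were tested, among them Hey1 at 0.10, Hes6 at 0.15, Myc at 0.12 and Id1, the lowest, at −0.48 ± 0.19 (SE, adjusted p = 0.380). Hes1 and Hes5 had no event among those analysed. Of 31 genes of Notch and Numb turnover 26 were tested, from −0.26 for Arrb1 to 0.30 for Wwp2.

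Splice events called in the authors' deposited table fell in 2 of the 67 pathway genes with an event, both nuclear partners, against the same 2.63% of all genes. Kdm5a, a histone demethylase that acts with Rbpj in repression, had an alternative 5′ splice site at 0.0, 0.025 and 0.0 in set 1 and 0.256, 0.083 and 0.147 in set 2, on 22 to 42 reads per library. Ctbp1, a corepressor, had an exon with only 2 to 6 reads per library, at 1.0 in all of set 1 and at 0.0, 0.337 and 1.0 in set 2. Its libraries overlapped. Ncam1, a neural cell adhesion gene on the marker list, also carried a called exon. It was at 0.0, 0.039 and 0.0 in set 1, on 31, 25 and 13 reads. In set 2 it was at 0.188, 0.198 and 0.073, on 58, 50 and 54 reads. The quasi-binomial adjusted p was 0.745 for Kdm5a and 0.746 for Ncam1.

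**Figure D5:**
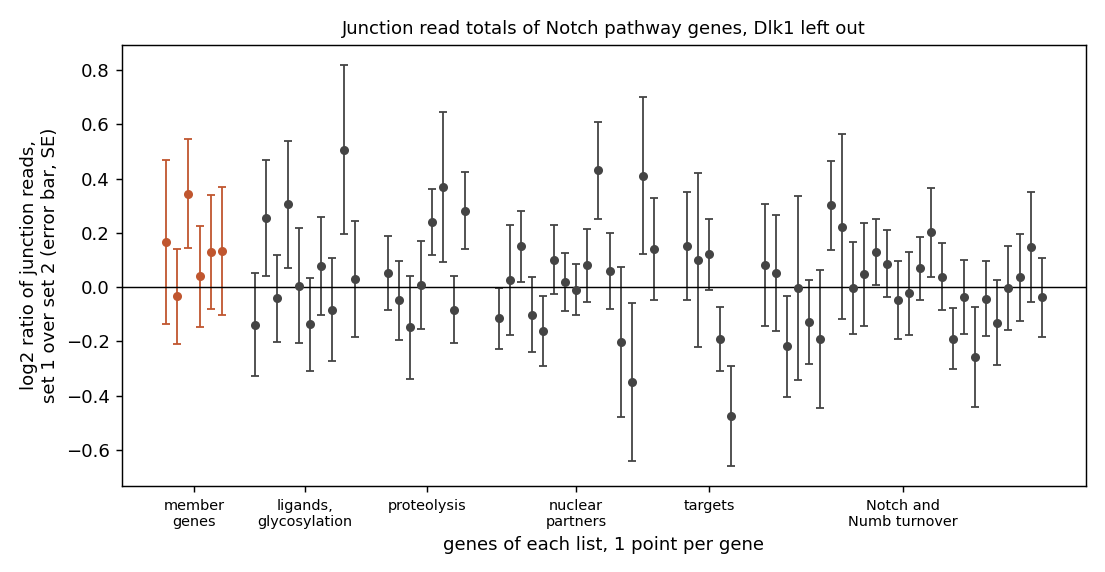
Log2 ratio of junction reads (set 1 over set 2, error bar SE) for the 6 tested members other than Dlk1 and the 64 tested genes of the 5 Notch lists, 1 point per gene. The points lie between −0.48 and 0.51 and none passed the test.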

How the data were processed

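RNA of 6 N2a libraries was extracted with Trizol and built with an NEBNext Ultra kit, per the labels' protocols. The submitters' processing notes name Bowtie2 2.2.3, HISAT2 2.1.0, HTSeq 0.6.0 and build mm10, without roles. Per the file headers, the deposited table has the layout of rMATS output. For each event the authors gave junction read counts per library, form lengths, inclusion levels as a fraction, p-values, an adjusted p and a level difference. How strand was used in counting is not given in the sources used here. Levels recomputed from the counts lay within 0.0005 of those deposited.

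Testing took events whose mean count reached 20 and used a moderated quasi-binomial test (R 4.3.3, limma 3.58.1), in which the dispersion follows the count of the rarer form and is at least 1, with Benjamini-Hochberg adjustment over all events. Gene totals were tested as log2(CPM + 1) by limma with a trend, 3 libraries against 3. For low genes such a ratio is smaller than the true change. Intervals and counts used scipy 1.17.1. Both tests were checked on simulated data, where the event test missed most changes at every size tried, and false calls of the gene test varied between draws and were on average more frequent with folds all in 1 direction. The dispersion form reported was set with results of earlier forms known. Named are all members, for each its most covered event, called events, and those of largest change and smallest p; the 5 genes most like Dlk1; and list genes that passed or carry a called event. Further list genes are given as examples and were chosen after their values were seen. Members and lists were chosen with earlier results of these data known. Alternatives were other dispersion priors, minimum counts, scalings, pseudocounts, and leaving out each library.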

Additional observations from a re-analysis of the deposited data

How the results depend on the processing

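No paired analysis was possible because the columns of the table carry no replicate number. In the authors' table the Numb exon was the 1 member event called under all 4 other thresholds. Its deposited adjusted p of 0.00478, change of 0.211 and mean of 60.5 reads already clear them, so this is no check of the call. The quasi-binomial test called 0 member events under each alternative except a dispersion prior along the total count, which called 1, the Numb 33-base exon (adjusted p = 0.035). Over the alternatives without a library left out, its adjusted p ran from 0.035 to 0.752. That prior called 64 events in the whole table, limma on logit levels called 0, and leaving out single libraries gave 2 to 19. Junction totals gave 25 to 286 genes when single libraries were left out, with 286 reached without library 1 of set 1. Dlk1 was not tested, and no other member gene passed in junction total under any alternative. Small values changed sign. With single libraries left out, the inclusion change ran from −0.0068 to 0.0059 for the Numbl 141-base exon (0.002 in 2 cases), from −0.0424 to 0.0109 for the Numb exclusive pair and from −0.0028 to 0.0031 for the Rbpj 96-base exon. The log2 ratio ran from −0.1895 to 0.4867 for Notch2, −0.1461 to 0.2433 for Rbpj, −0.0639 to 0.2654 for Maml1, −0.0354 to 0.3234 for Itch −0.1603 to 0.0593 for Numb and, with no change of sign, 0.2233 to 0.5797 for Numbl. With the mean over all events of a gene, Numb stood at 0.0205 and Itch at −0.0271. The cause was not tested. Depth limits Notch3, the Rbpj 50-base exon and the Dlk1 forms in set 1 most.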
